A study of Saccharomyces cerevisiae with 5 samples.

Results

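The genes described here encode the proteins of the mitochondrial ribosome of budding yeast. They were chosen by name alone, as every annotated coding sequence (CDS) whose standard gene name is *MRPL*, *MRPS*, *MRP* or *RSM* followed by a number. No measured value entered this rule. The rule took 67 of 6697 CDS. By their RefSeq products, 38 of them encode large subunit proteins and 27 small subunit proteins. The other 2 have no known place in the particle. *RSM22* encodes a methyltransferase-like protein that takes part in making the small subunit, and *MRP8* encodes a protein of unclear function.

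The mitochondrial ribosome, or mitoribosome, translates the few mRNAs of the mitochondrial genome, most of which encode core subunits of the respiratory chain and the ATP synthase. Its rRNAs and the small subunit protein Var1 are made inside the organelle, whereas every other protein of the particle is encoded in the nucleus, made in the cytosol and imported. Many of these proteins descend from the bacterial ancestor of the organelle, and others are found in mitochondria only. In *Saccharomyces cerevisiae* a large group of nuclear mRNAs for mitochondrial proteins is bound by Puf3, an RNA-binding protein that recognises a short motif in the 3′ untranslated region and affects the stability, location and translation of its targets. Copper is a cofactor of cytochrome oxidase and is toxic in excess.

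Wild-type haploid cells of strain BY4741 were grown in YPD, a rich medium with glucose, and poly(A)+ RNA was sequenced from 1 sample of cells given 1 mM CuSO4 for 4 hours and 1 sample in YPD without added copper (0 mM). Both carry the auxotrophic markers of the strain, *his3*Δ1, *leu2*Δ0, *met15*Δ0 and *ura3*Δ0, and high copy numbers of the copper-binding metallothionein gene *CUP1*. Chromatin of YPD cells was also immunoprecipitated for γH2A, phosphorylated histone H2A that marks stalled replication forks, which gave a list of 240 peaks. With 1 library per condition no difference has a replicate check, every interval below covers counting error only, and no p-value is given. In bulk samples a change in the number of cells that express a gene cannot be told apart from a change in RNA per cell.

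The libraries held 5749810 reads on CDS with CuSO4 and 5572698 in YPD, and 125 and 131 CDS had no read. The strain and treatment labels were checked first. *CUP1-1* had 4042 reads with CuSO4, against 496 in YPD. *LEU2*, *URA3* and *MET17*, the gene of *met15*Δ0, had 0 reads in both libraries, whereas *HIS3*, of which part remains in *his3*Δ1, had 309 and 291. Of the genes that mark mating type **a**, *MFA1* had 463 and 312 reads and *STE2* 5320 and 4433. Of those that mark mating type α, *STE3* had 7 and 11 reads and *MF(ALPHA)1* had 0 in both.

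Of the 6 short motifs searched, 1 past the stop codon and 5 in promoters, the one most widely shared by the mitoribosomal genes was the Puf3 motif, TGTANATA (N is any base), searched on the transcribed strand in the 200 bases past each stop codon. Examples are shown here with the motif in capitals, from 5′ to 3′ on the transcribed strand of the RefSeq R64 genome. They are those of the 4 genes with the largest positive change with CuSO4 (*MRPL44*, *MRPL27*, *RSM27* and *MRP35*), of the gene with the highest level in YPD (*MRPS12*) and of the 4 genes with the most negative change (*MRPL36*, *RSM7*, *MRP20* and *MRP4*), so that both ends of the response can be compared.
MRPL44: acaagcaagccTGTAAATAatatatatgca
MRPL27: ttcaatatgcgTGTAAATActagttttcga
RSM27: aactcatttcaTGTACATAcaaaatcaaaa
MRP35: ttcggtcttcaTGTATATAaataagtatga
MRPS12: atacaacctttTGTAAATAgcaatgaccat
MRPL36: ataaacagcctTGTATATAccgcaacatat
RSM7: gtaaacttgccTGTACATAaacacatttat
MRP20: cccctcacactTGTATATAcggagcaaact
MRP4: taacctaaactTGTACATAtgcccatatat

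These sites lie at chrXIII:720854-720883 (minus strand) for *MRPL44*, chrII:768698-768727 (plus) for *MRPL27*, chrVII:922547-922576 (plus) for *RSM27*, chrXIV:397921-397950 (minus) for *MRP35* and chrXIV:694269-694298 (minus) for *MRPS12*. Those of the genes with lower values lie at chrII:483850-483879 (minus) for *MRPL36*, chrX:638192-638221 (minus) for *RSM7*, chrIV:1278499-1278528 (plus) for *MRP20* and chrVIII:100429-100458 (plus) for *MRP4*. The match of *MRPL36* is the first of its 2. All the sites are downstream of the CDS, but the ends of the mRNAs are not given in the files, so a match may lie past the end of an mRNA.

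The motif was present past the stop codon of 65 of the 67 genes (97.0%), against 810 of 6630 other CDS (12.2%). All 38 large subunit genes and all 27 small subunit genes held it, and the 2 without it were *MRP8* and *RSM22*, the same 2 that have no known place in the mitoribosome. On the opposite strand of the same windows 13 of the 67 genes (19.4%) and 12.1% of the other CDS held the motif. Where the window was ended at the next CDS, 63 genes (94.0%) and 11.3% of the other CDS held it.

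Other parts of the mitochondrial translation machinery carried it often as well, and the respiratory chain seldom. It was found at 13 of 14 mitoribosomal subunit genes with other names, such as *MNP1* and *PET123*, and the exception was the mitochondrially encoded *VAR1*. It was found at 15 of 16 genes for mitochondrial tRNA charging (all but *GTF1*), at 7 of 9 for mitochondrial translation factors, at 7 of 9 for mitoribosome assembly, at 10 of 14 for mRNA-specific translational activators and at all 4 for proteins that anchor the mitoribosome to the inner membrane. Among 39 nuclear genes of the respiratory chain and ATP synthase 6 held it (15.4%), and among 138 genes of the cytosolic ribosome 6 (4.35%). *PUF3* itself held none.

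**Figure D1:**
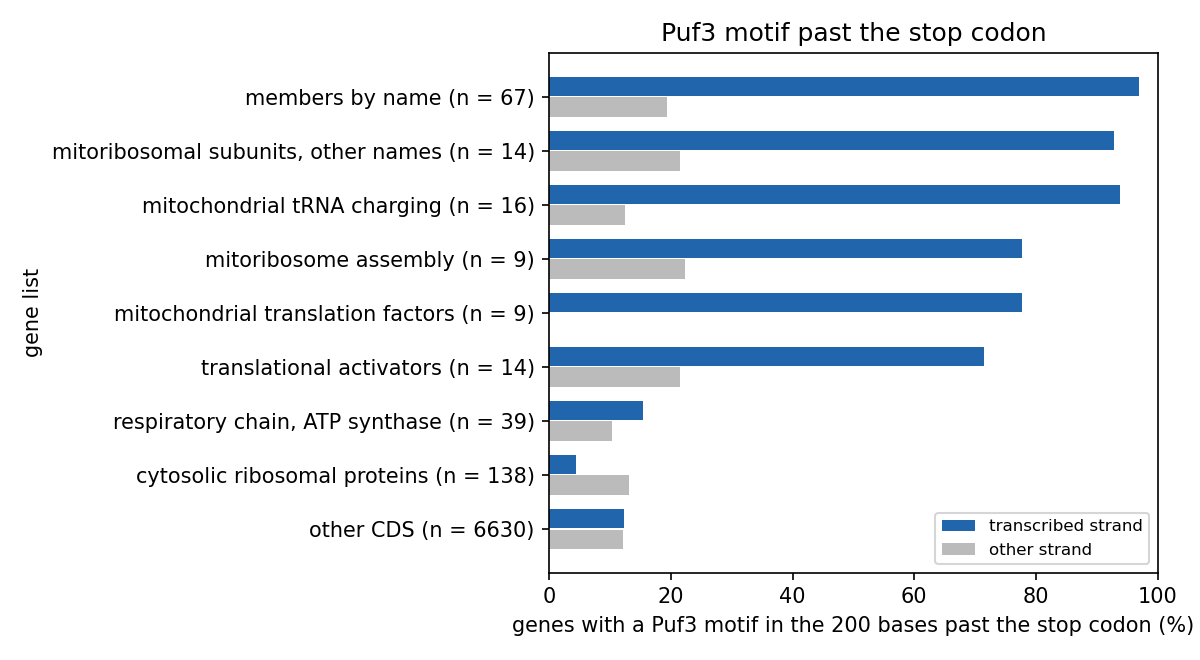
Share of genes (%, horizontal axis) with a Puf3 motif in the 200 bases past the stop codon, by gene list (vertical axis, with the number of genes), on the transcribed strand (blue) and on the other strand (grey). The 67 genes chosen by name stand at 97.0% on the transcribed strand and 19.4% on the other strand, and the other CDS stand at 12.2% and 12.1%.

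The matches of the mitoribosomal genes also shared features that the search did not use. Of 79 matches, the variable base was A in 36, T in 25, C in 17 and G in 1, while among 876 matches at other CDS T was the most frequent (51.3%) and A made up 26.4%. A cytosine stood 2 bases before the match in 52 of the 79 (65.8%), as in the sites of *MRPL44*, *RSM27* and *MRP35* shown above, against 24.1% of the matches at other CDS. The form TGTAAATA was held by 36 of the 67 genes (53.7%), against 3.42% of the other CDS.

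Most matches lay close to the stop codon. The first base of a match was at a median of 55 bases past the stop codon, with a range of 8 to 165. The nearest was in *MRPS5*, which encodes the counterpart of bacterial uS5. Of the 79 matches 72 (91.1%) were within the first 100 bases, against 71.1% of those at other CDS. There was 1 match at 52 of the genes and 2 at 12. *RSM19*, whose product is the small subunit head protein uS19m, had 3.

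**Figure D2:**
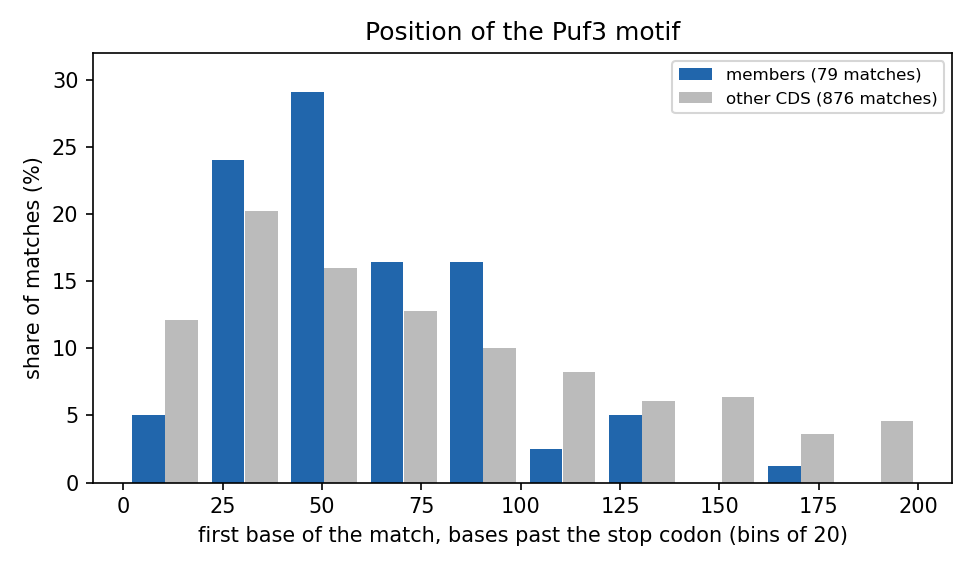
Position of the first base of each Puf3 match, in bases past the stop codon (horizontal axis, bins of 20), as a share of matches (%, vertical axis), for the 79 matches of the mitoribosomal genes (blue) and 876 matches of other CDS (grey). The bars of the mitoribosomal genes are mostly below 100 bases, where 91.1% of their matches lie.

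No such common feature was found among 5 short motifs in the promoters, taken as 250 bases before to 50 after the start codon and searched on both strands. AATTTT was in 28 of the 67 promoters (41.8%) and 50.9% of the others, and AAAATTTT, which contains it, in 5 (7.46%) and 8.33%. CCAAT, the core of the site of the respiratory activator Hap2/3/4/5, was in 28 (41.8%) and 44.4%. GATGAG was in 11 (16.4%) and 20.2%, and TGACTC, the core of the site of the amino acid regulator Gcn4, in 1 (1.49%) and 8.11%.

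The mitoribosomal mRNAs were of moderate and rather even abundance. In log2 reads per kb of CDS, scaled to the larger library, their median level was 9.04 with CuSO4 (range 7.77 to 10.17) and 8.89 in YPD (range 7.50 to 9.95). The other CDS had medians of 7.91 and 7.90, so the gap was 1.12 with CuSO4 and 0.99 in YPD. In each library 66 of the 67 genes were above the median of the other CDS, and the exception was *RSM22*.

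Their levels were also closer together than those of all other CDS. The SD over the 67 genes was 0.48 with CuSO4 and 0.47 in YPD, against 2.00 and 1.99 over the other CDS and 1.06 and 1.04 over the cytosolic ribosomal protein genes. It was of like size over the mitoribosomal subunit genes with other names (0.52 and 0.50) and the genes for mitochondrial tRNA charging (0.51 and 0.43). The cytosolic ribosomal protein genes had medians of 13.22 and 13.14, which is 18.2-fold and 19.0-fold above the mitoribosomal medians. All 67 genes together took 23977 reads with CuSO4 and 21612 in YPD. This is 0.417% of the reads on CDS with CuSO4 (0.412% to 0.422%, 95% Clopper-Pearson interval) and 0.388% in YPD (0.383% to 0.393%), while the cytosolic ribosomal protein genes took 18.6% and 18.2%.

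**Figure D3:**
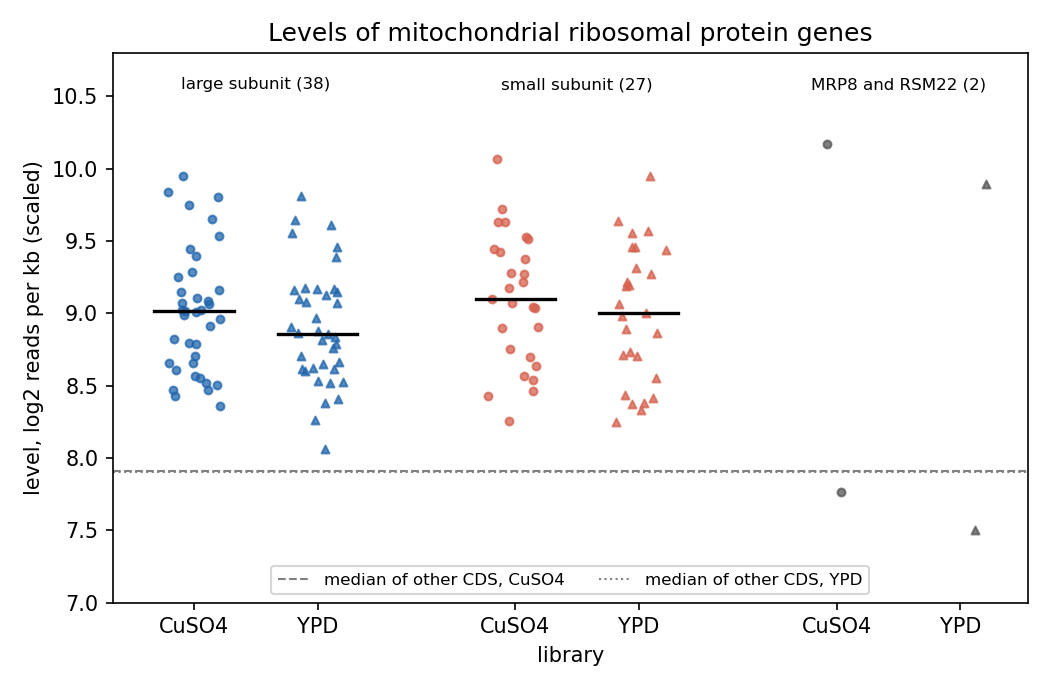
Level of each mitoribosomal gene in log2 reads per kb, scaled to the larger library (vertical axis), with CuSO4 (circles) and in YPD (triangles), for the large subunit, the small subunit, and *MRP8* and *RSM22*. Black bars are medians (large subunit 9.02 and 8.86, small subunit 9.10 and 9.00), and of all the genes only *RSM22* is under the medians of the other CDS (dashed and dotted lines).

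The order of the genes by level was nearly the same in both libraries, with a Spearman correlation of 0.94 over the 67 genes, which share both libraries and the same CDS lengths. The highest level in YPD was that of *MRPS12*, which encodes the decoding-centre protein uS12m, at 10.07 with CuSO4 and 9.95 in YPD, from 496 and 441 reads. It was followed by *MRP8* (10.17 and 9.90) and *MRPL31* (9.95 and 9.81), the gene of a mitochondria-specific large subunit protein. The next genes by level in YPD were *MRPL51*, *MRPS18*, *MRPL50*, *MRP2*, *MRPL36*, *MRPS9* and *MRPL39*, from 9.64 down to 9.46 in that library. Of these, *MRPS18*, *MRP2* and *MRPS9* encode the counterparts of bacterial uS11, uS14 and uS9.

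The lowest gene was *RSM22*, at 7.77 with CuSO4 and 7.50 in YPD, from 411 and 331 reads. Next came *MRP35* (8.43 and 8.06), *MRPS5* (8.46 and 8.25), *MRPL44* (8.70 and 8.27) and *RSM24* (8.64 and 8.33). *MRP35* encodes the counterpart of the small bacterial protein bL35, and *MRPL44* and *RSM24* encode mitochondria-specific proteins of the large and the small subunit. *MRPL44* is the only one of the 67 genes with an intron, and the deposited values divide by the whole span of 444 bases, of which the intron takes 147. Divided by its 297 coding bases, *MRPL44* would stand at 9.28 with CuSO4 and 8.85 in YPD, near the medians of all 67 genes.

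Short genes had the higher levels. The Spearman correlation of the level in YPD with CDS span was -0.50 over the 67 genes. The 25 genes of under 500 bases had median levels of 9.37 with CuSO4 and 9.17 in YPD, the 32 genes of 500 to under 1000 bases 8.94 and 8.83, and the 10 longer ones 8.55 and 8.48. The values are divided by span, and the part of that division in this order was not tested.

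With CuSO4 the genes as a whole were slightly higher than in YPD. The median change (log2 of CuSO4 over YPD) was 0.10, with quartiles of -0.01 and 0.25, against 0.01 over all 6363 CDS tested, with quartiles of -0.10 and 0.13. All 67 genes passed the minimum of 10 reads in both libraries together, with 90 to 759 reads per library. Summed over the genes the reads gave a change of 0.10 (95% counting interval 0.07 to 0.13).

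The change was small in every gene and mostly in one direction. It ranged from -0.16 in *MRPL36* to 0.44 in *MRPL44*, and 48 of 67 genes were above 0 (71.6%), against 52.9% of all CDS tested. At least 25% higher with CuSO4, a threshold of 0.32 on the log2 scale, were 7 of 67 (10.4%), beside 8.77% of all CDS tested, so this share was near the background. At least 20% lower, the same distance on the log2 scale, were 0 of 67, beside 5.59%. A 95% counting interval wholly above 0 was found for 19 genes (28.4%), beside 11.2%, and one wholly below 0 for 0 genes, beside 9.71%. Without *MRP8* and *RSM22* the intervals wholly above 0 numbered 17, and the median change was 0.08.

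Much of the spread between genes was of the size that counting alone gives. The SD of the change over the 67 genes was 0.16, and counting error alone gives 0.12 at these depths. The median half-width of a gene's counting interval was 0.22. No gene reached 1.5-fold in either direction, and 22 genes were within 0.1 of 0.

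**Figure D4:**
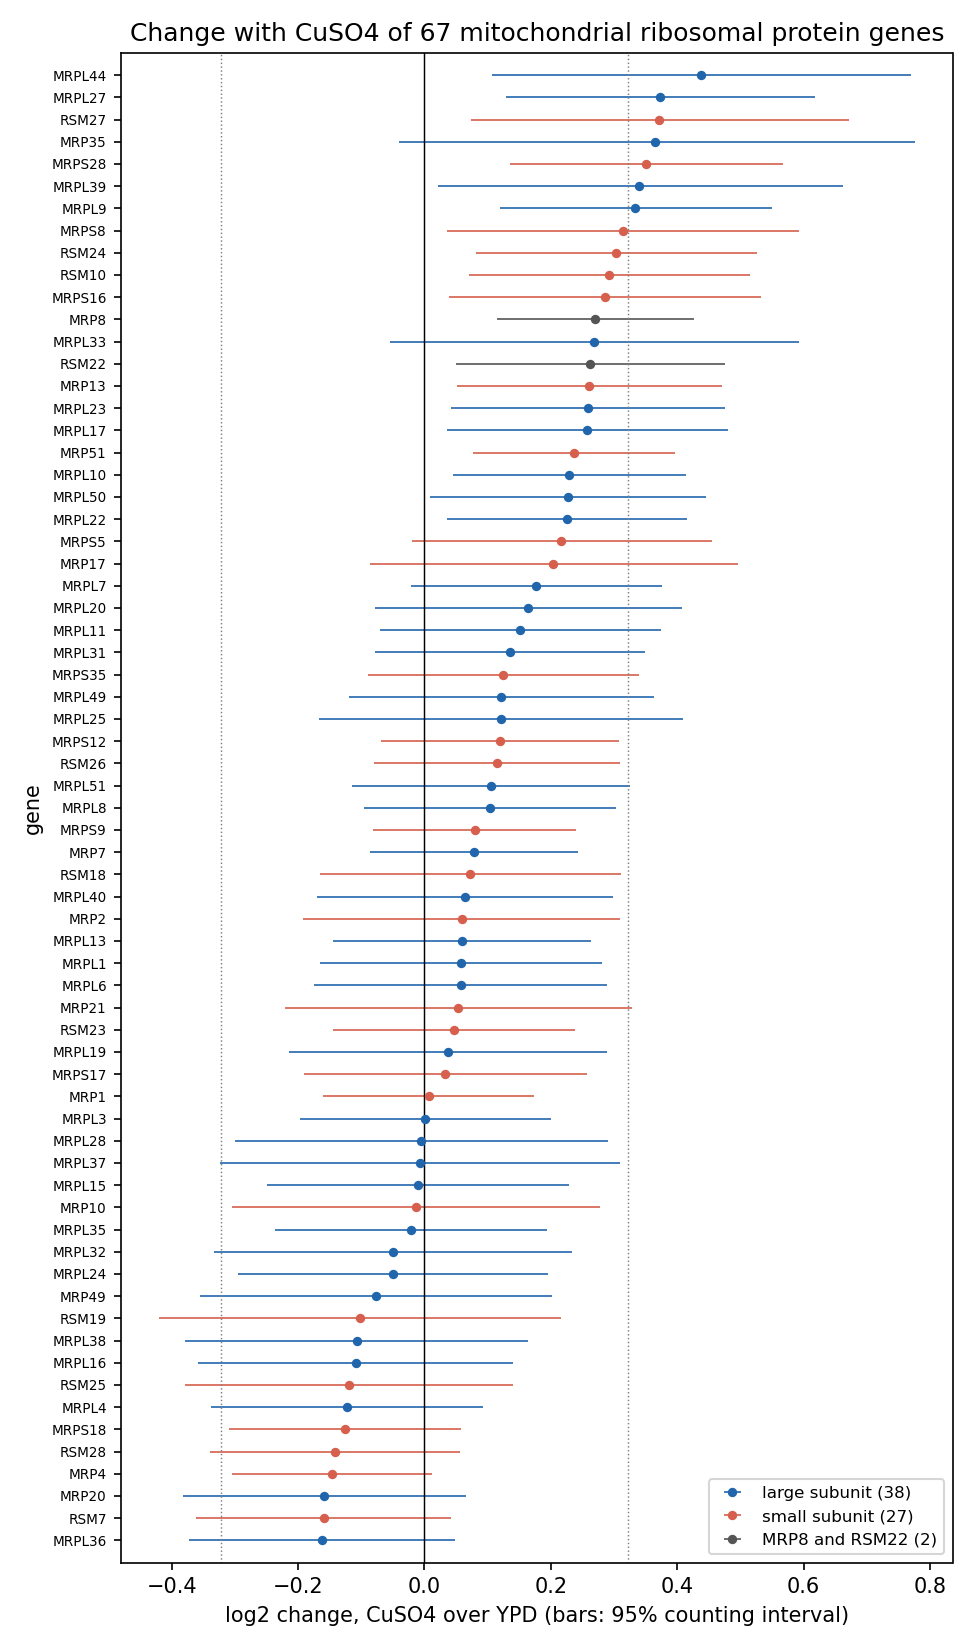
Change of each of the 67 mitoribosomal genes (vertical axis) as log2 of CuSO4 over YPD (horizontal axis), with 95% counting intervals as bars and the thresholds of 25% higher and 20% lower as dotted lines. Large subunit genes are blue, small subunit genes red, and *MRP8* and *RSM22* dark grey. Of the intervals 19 are wholly above 0 and 0 wholly below it.

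Of the 7 genes at least 25% higher, 5 encode large subunit proteins. *MRPL44* had 185 reads with CuSO4 and 132 in YPD, a change of 0.44 (0.11 to 0.77). *MRPL27*, the gene of the mitochondria-specific mL41, had 327 and 244 reads (0.37, interval 0.13 to 0.62). *MRP35* had 120 and 90 reads, the fewest of the 67 genes, and its interval of -0.04 to 0.78 included 0.

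Genes for proteins with a bacterial counterpart were among the 7 as well. *MRPL39*, which encodes the small protein bL33m, had 190 and 145 reads (0.34, interval 0.02 to 0.66). *MRPL9*, which encodes uL3m of the large subunit core, had 411 and 315 reads (0.33, interval 0.12 to 0.55), and with each library centred on the median of all CDS it was just under the threshold. *MRPL9* shares 303 of its 810 bases with *YGR219W* on the other strand, whose change was 0.47 from 218 and 152 reads, and the 2 cannot be told apart where counting ignores strand.

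The 2 small subunit genes past the threshold were *RSM27* and *MRPS28*. *RSM27*, which encodes the mitochondria-specific mS33, had 221 reads with CuSO4 and 165 in YPD (0.37, interval 0.07 to 0.67). *MRPS28*, the gene of uS15m, had 412 and 312 reads (0.35, interval 0.14 to 0.57). *MRPS8*, the gene of uS8m, was just inside the threshold with 247 and 192 reads, a change of 0.31.

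The 2 genes without a known place in the particle were both above 0. *MRP8* had 759 and 608 reads (0.27, interval 0.11 to 0.43), and *RSM22* 411 and 331 (0.26, interval 0.05 to 0.48). They were also the 2 genes without a Puf3 motif.

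At the lower end, every negative change had an interval that included 0. *MRPL36*, which encodes bL31m of the central protuberance, had 360 reads with CuSO4 and 389 in YPD (-0.16, interval -0.37 to 0.05). *RSM7*, the gene of the small subunit head protein uS7m, had 391 and 422 reads (-0.16), of which those on 317 of its 744 bases overlap *YJR114W* on the other strand (175 and 164 reads). *MRP20*, whose product uL23m sits at the exit of the polypeptide tunnel, had 320 and 345 reads (-0.16), and *MRP4*, the gene of uS2m, had 638 and 682 (-0.15, interval -0.30 to 0.01). The next 4 were *RSM28* (412 and 439 reads), *MRPS18* (478 and 504), *MRPL4* (348 and 366) and *RSM25* (243 and 255), with changes of -0.14 to -0.12.

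The 2 subunits did not stand apart in their medians. The change had a median of 0.09 over the 38 large subunit genes and 0.08 over the 27 small subunit genes. Intervals wholly above 0 numbered 9 and 8, beside 11.2% of all CDS tested. It was 0.08 over both the 41 genes whose proteins have a bacterial counterpart and the 24 whose proteins are specific to mitochondria.

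Within the large subunit each gene was assigned to 1 place, and other assignments are possible. The 4 genes assigned to the tunnel exit (*MRPL22*, *MRP20*, *MRPL40* and *MRPL4*) had a median of -0.03. The 6 assigned to the central protuberance had 0.04, against 0.12 over the 25 assigned to the body. *MRPL22*, the gene of the tunnel-lining protein uL22m, was itself at 0.23 with an interval wholly above 0, so the 4 genes did not move as one. These groups hold few genes, and differences between them were not tested.

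By the form of the Puf3 motif, the 36 genes with TGTAAATA had a median change of 0.12 and the 29 with another base at the variable position 0.06. Of the 7 genes at least 25% higher, 4 held TGTAAATA, as did 3 of the 8 with the most negative changes, beside 53.7% of all 67 genes. Differences by the form of the motif were not tested. Over the other CDS the median was 0.02 for the 798 with the motif and 0.01 for those without. *PUF3* mRNA had 357 reads with CuSO4 and 328 in YPD, a change of 0.07 (-0.15 to 0.29).

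The change moved with CDS length in the whole library, in the same direction as in the mitoribosomal genes. Over the other CDS the median was 0.06 under 500 bases, 0.05 from 500 to under 1000 and -0.02 above that. The mitoribosomal genes had medians of 0.12, 0.06 and 0.06 in the same classes, and their median span was 699 bases, against 1095 over the other CDS. The part that length has in the change was not tested. Without the 25 short genes the median change of the others was 0.06.

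The genes were spread over 14 of the 16 nuclear chromosomes, with 12 on chromosome IV and 10 on XIV, and 35 were on the plus strand. Only *MRPS12* and *RSM19* are direct neighbours, 229 bases apart on the same strand of chromosome XIV. Overlaps with another annotated CDS were found for 6 genes. The largest were those of *MRPL38*, whose product is uL14m, with 87.8% of its bases shared with *YKL169C*, and of *MRPL51*, with 76.4% shared with *YPR099C*, both on the other strand. With CuSO4 and in YPD *MRPL38* had 223 and 232 reads, beside 232 and 241 for *YKL169C*. *MRPL51* had 364 and 327, beside 280 and 239 for *YPR099C*. The values of each pair may therefore hold the same reads, which was not tested. The 61 genes without an overlap had a median change of 0.11.

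None of the genes had a γH2A peak just upstream. A peak in the 1000 bases upstream of the start was found for 0 of the 67 genes, against 445 of all 6697 CDS (6.64%). The median distance from the start of a gene to the nearest peak was 44.6 kb, and the smallest was 1.24 kb, at *MRPS9*. No mitoribosomal gene was within 20 kb of a chromosome end, and the nearest was at 44.5 kb. These distances were not compared with those of all CDS.

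The rest of the mitochondrial translation machinery was compared with the mitoribosomal genes list by list. Of the mitoribosomal subunit genes with other names 13 could be tested, with a median change of 0.10 and median levels of 9.07 with CuSO4 and 8.96 in YPD, close to those of the 67 genes. None of the 13 passed either threshold, beside 8.77% higher and 5.59% lower of all CDS tested. None had an interval wholly above or below 0, beside 11.2% and 9.71%. Summed over this list the reads gave a change of 0.05 (95% counting interval -0.01 to 0.11), against 0.10 (0.07 to 0.13) for the 67 genes. The highest were *SWS2*, the gene of uS13m, with 303 and 249 reads (0.23), and *IMG2*, the gene of mL49, with 237 and 198 (0.21).

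The 16 genes for charging mitochondrial tRNAs had a median change of 0.10. Beside 8.77% of all CDS tested, 2 of the 16 were at least 25% higher, and counts in lists this small were not tested. *MSF1*, the phenylalanyl-tRNA synthetase, had 208 reads with CuSO4 and 153 in YPD (0.39), and *GTF1*, a subunit of the glutamyl-tRNA amidotransferase, had 246 and 187 (0.35). The 9 translation factors had a median of 0.04, with *MRF1*, the release factor, highest at 0.10 and none past the threshold. Levels of both lists were lower than those of the mitoribosomal genes, with medians of 7.21 and 7.15 for tRNA charging and 7.42 and 7.33 for the factors.

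The 14 translational activators had a median change of 0.08, and, beside 8.77% of all CDS tested, 1 was at least 25% higher. This was *CBP6*, whose product binds the mitoribosome and the new cytochrome b chain, with 214 and 161 reads (0.36). The 9 assembly genes had a median of -0.01 and none past the threshold in either direction, beside 8.77% higher and 5.59% lower of all CDS tested. Lowest were the helicase gene *MRH4* (182 and 213 reads, -0.28) and the GTPase gene *MTG2* (142 and 159 reads, -0.21). Of the 4 membrane anchors, *MBA1* had 231 and 169 reads (0.40), and the other 3, *MDM38*, *YLH47* and *OXA1*, were at 0.08, 0.04 and -0.03.

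Most products of mitochondrial translation join nuclear-encoded subunits of the respiratory chain or the ATP synthase. The list of nuclear genes used here is wider than these partners, as it also holds *CYC1*, *INH1* and *SDH1* to *SDH4*. Of the 38 genes of this list that were tested, 8 were at least 25% higher, beside 8.77% of all CDS tested. An interval wholly above 0 was found for 29, beside 11.2%, and the median change of the list was 0.26. The largest were *INH1*, the inhibitor of the ATP synthase (0.63), and *QCR10*, a subunit of the cytochrome bc1 complex (0.58). The share of reads of the list was 0.455% with CuSO4 and 0.390% in YPD, beside 0.417% and 0.388% for the mitoribosomal genes. Its genes are short, with a median span of 445.5 bases. Among the 1192 other CDS of under 500 bases that were tested, 240 were at least 25% higher and 158 had an interval wholly above 0. The part that length has in the change of the list was not tested. All 8 mitochondrially encoded protein genes, *VAR1* included, had 0 reads in both libraries, which allows up to 3 reads each. Yeast mitochondrial mRNAs carry no poly(A) tail, by which the libraries were selected. Whether this accounts for the 0 reads was not tested.

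The 138 genes of the cytosolic ribosome had a median change of 0.04, with 2 at least 25% higher and 2 at least 20% lower, beside 8.77% and 5.59% of all CDS tested. An interval wholly above 0 was found for 58 and one wholly below 0 for 20, beside 11.2% and 9.71%. Intervals narrow as reads per gene rise, so these counts also depend on level. The largest values of each sign were those of *RPS6A* (0.62) and *RPS6B* (-1.18). These are near-identical copies between which reads may have been split, and the part of this in their changes was not tested.

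**Figure D5:**
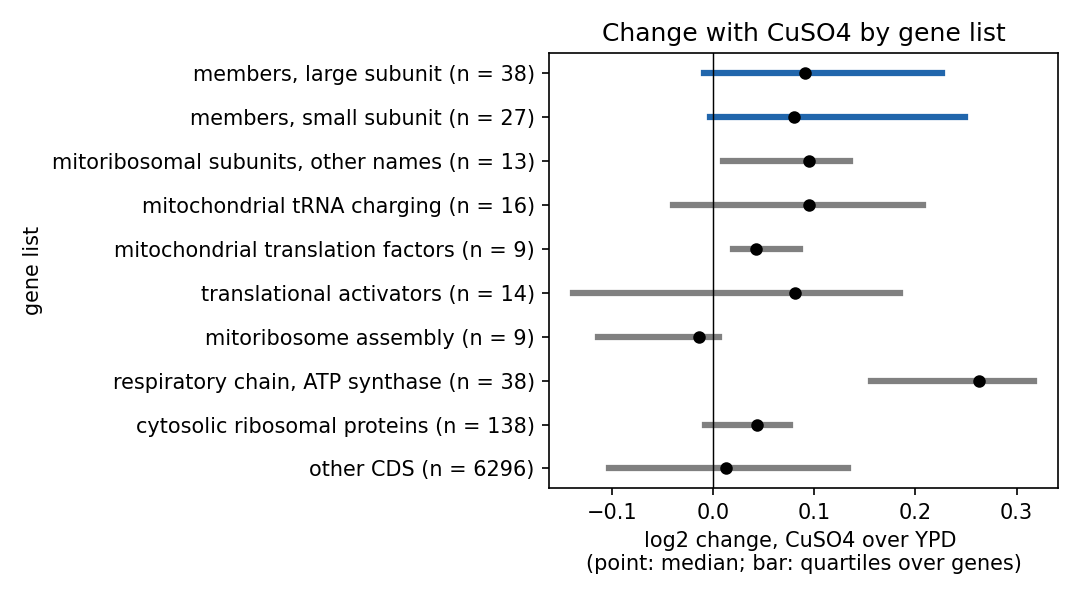
Change with CuSO4 by gene list (vertical axis, with the number of genes tested) as log2 of CuSO4 over YPD (horizontal axis). Points are medians and bars run between the quartiles over genes, which are not replicates. The 2 mitoribosomal subunits (blue) are at 0.09 and 0.08, the respiratory chain and ATP synthase at 0.26 and the other CDS at 0.01.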

How the data were processed

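Poly(A)+ RNA of BY4741 cells was sequenced from 1 CuSO4 and 1 YPD sample. The authors mapped reads to R64-2-1 (HISAT2 2.0.5) and counted them per CDS in SeqMonk. The deposited values are log2 reads per kb of CDS span, introns included, scaled to the larger library, with 0.9 reads where none were counted. The common median that the study's methods describe is not in them (7.84 and 7.82). Undoing the length and the scale (1 and 1.04) gave whole reads within 0.05 for 99.98% and 99.94% of values above that floor.

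The change is the difference of deposited log2 values, with a 95% Clopper-Pearson interval on the reads. A CDS was tested if its reads, summed over the libraries, came to 10 or more. No count model was used, as no condition has replicates. Whether counting used strand is not given in the sources used here.

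For γH2A, the authors called peaks with MACS2 (Bowtie2 2.2.5 alignment) and kept those of at least 2-fold enrichment. The deposited pileup signal, fold enrichment and -log10 p-value were not used, only positions, with at least 1 bp in the 1000 bp upstream. The list is labelled for the CuSO4 ChIP and the input too, and was taken as that of YPD cells, which the study's methods describe. The CuSO4 ChIP is not analysed here.

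Names and sequences came from RefSeq R64, with an entry for 6014 CDS (89.8%), all 67 genes included. 99.9% have the same start and end in both. Python 3.11.15, pandas 2.3.3, numpy 2.4.6 and SciPy 1.17.1 were used, and the interval code was tested on simulated data. The rule for the members used names only. It and the lists, motif and thresholds were chosen with earlier results of these data known. Named are the 10 highest and 5 lowest genes in YPD, the 8 largest changes of each sign given 50 reads or more in 1 library, and 2 per list. Other genes, the promoter motifs, the length classes, the windows ended at the next CDS and the other strand were chosen after the values were seen.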

Additional observations from a re-analysis of the deposited data

How the results depend on the processing

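No paired analysis was possible because there is only 1 library of each kind, and for the same reason no library could be left out. Of 58 alternative values for the summaries of the mitoribosomal genes, 43 stayed close to the value reported, which for counts meant within 1.5-fold of it. A minimum of 50 reads, or none, left out no mitoribosomal gene, so these settings could not move its counts or median change. Counts, shares and levels of this size cannot change sign. The median change and the level gap could have done so and did not. All 201 alternative values for single genes stayed within that gene's counting interval. They came from scaling shifts of 0.0129 and -0.0026 and from 1 added read. Such settings are too small beside these intervals to leave them, so this is no check of single genes. Centring each library on the median of all CDS, a shift of 0.01, nonetheless moved 2 genes near 0 below it (*MRP1* from 0.0065 to -0.0064 and *MRPL3* from 0.0015 to -0.0114), moved *MRPL9* from 0.3340 to 0.3211, just under the threshold of 0.3219, so that 6 genes passed it, and put the interval of 1 gene wholly below 0 (*MRP4*). Fold thresholds of 1.5 and 2 left 0 genes higher. A 99% interval left 8 genes wholly above 0. The median change was 0.0613 without genes of under 500 bases, and 0.0584 where *MRP8* and *RSM22* were left out as well. Without division by length the median levels were 8.44 with CuSO4 and 8.34 in YPD (log2 reads). Without the *CUP1* region and the 10 CDS with most reads, the share of reads was 0.470% and 0.438%, and without *MRP8* and *RSM22* 0.397% and 0.371%. The share of genes with a Puf3 motif was 89.6% within 100 bases, 97.0% within 300 bases, 53.7% for TGTAAATA alone and 19.4% on the other strand. Depth limits single genes, since a median counting interval of 0.22 on each side spans most changes seen.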
